A study of Mus musculus with 8 samples.

Results

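A set of 10 genes that report on the RAS-MAPK pathway was read in every library of a mouse liver RNA sequencing series, chosen by their gene name from the deposited count table. They are 10 of the 37583 genes in that table, and all 10 passed the count filter that kept 17362 genes. The members are the MAPK phosphatases Dusp4, Dusp5 and Dusp6, the inhibitors Spry1, Spry2, Spry4 and Spred1, the ETS transcription factors Etv4 and Etv5, and Phlda1.

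All livers came from C57BL6/CBA mice aged 8 months. Of the 8 libraries, 2 were from untreated wild-type liver (WT). Another 4 carried the genotype PR-SET7_LX_ALB_CRE (the group PR-SET7_LOBE, whose last word the labels leave unexplained), in which Pr-Set7, a histone H4 methyltransferase, is inactivated by an ALB Cre. An albumin promoter drives Cre in hepatocytes, and the labels do not say whether other cells of the liver keep the gene. The last 2, DEN_WT, were from wild-type animals that received an intraperitoneal injection of diethylnitrosamine (DEN), a liver carcinogen, on day 15. The dose is labelled 25 ml per kg with no concentration. Whether a library holds tumour tissue, tissue between tumours or both is not stated in the labels, and RAS or RAF mutations were not analysed here.

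RAS passes signals from growth factor receptors through the kinases RAF and MEK to ERK. Active ERK induces its own brakes: DUSP phosphatases remove the activating phosphates from MAP kinases, and Sprouty and Spred proteins restrain signalling at RAS and RAF. ETV4 and ETV5 are ETS factors made in response to the pathway, and transcripts of this set are widely used as a readout of ERK output. Liver tumours of DEN-injected mice often carry activating RAS or RAF mutations.

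The DNA before the start of Dusp6 and Dusp5 is shown because both genes rose in DEN_WT. Each stretch holds the 250 bases before the RefSeq start (build GRCm38.p6, plus strand), at chr10:99262981-99263230 for Dusp6 and chr19:53528895-53529144 for Dusp5. Capitals mark an ETS core (CGGAAG, read on either strand) in Dusp6, and a pair of adjoining CArG boxes, the letters bound by serum response factor, in Dusp5.
Dusp6: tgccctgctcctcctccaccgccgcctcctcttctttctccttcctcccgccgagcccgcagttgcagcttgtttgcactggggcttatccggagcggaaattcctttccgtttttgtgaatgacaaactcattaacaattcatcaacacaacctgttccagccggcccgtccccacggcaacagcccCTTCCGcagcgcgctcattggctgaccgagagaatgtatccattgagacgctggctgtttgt
Dusp5: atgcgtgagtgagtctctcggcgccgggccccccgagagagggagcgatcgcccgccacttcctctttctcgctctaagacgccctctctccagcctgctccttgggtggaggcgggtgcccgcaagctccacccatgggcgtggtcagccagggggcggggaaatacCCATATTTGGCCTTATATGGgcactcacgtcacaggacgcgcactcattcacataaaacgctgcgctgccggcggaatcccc
The ETS core of Dusp6 begins 62 bases before the start, and the CArG boxes of Dusp5 begin 82 and 72 bases before it. An ETS core was found in 13.6% of 32851 promoters of this length and a CArG box in 1.47%. RefSeq promoters were matched for 6 of the 10 genes, with 7 entries. The ETS core was in 2 of these 7, those of Dusp6 and Spred1, and the CArG box in 1, that of Dusp5. An AP-1 site (TGANTCA, in 6.75% of all promoters) and a CRE (TGACGTCA, in 1.55%) occurred in 0 of the 7. The motifs do not overlap in the 2 stretches shown, and a match is a description of the letters only. The CArG box was searched for after the sequences had been read.

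Total counts ran from 7305595 to 16108081 per library. Setd8, the gene of Pr-Set7, had 51.9 and 56.0 CPM in WT against 46.5 to 62.6 CPM in PR-SET7_LOBE (adjusted p = 0.994, edgeR); its counts cover the whole gene and the deleted exons are not given, so it does not check the genotype. PR-SET7_LOBE replicate 1 stood apart: its gene levels followed transcript GC content with r = 0.619 across genes, against -0.297 to 0.314 in the other 7 libraries. Those 7 values split by group: r was positive for WT (0.314 and 0.198) and negative for DEN_WT (-0.297 and -0.262). PR-SET7_LOBE replicates 2 to 4 lay between -0.282 and -0.0456. Dependence on GC content thus differed between DEN_WT and WT as well. Calls in the lists beyond the 10 genes carry no correction for GC content, and its part in them was not tested. For the 10 genes, results are given without PR-SET7_LOBE replicate 1 wherever that changes a call. For the other lists, counts of calls without that library stand beside the others. The hepatocyte marker Alb was at 9678 to 105982 CPM. Replicates carry a number in the sample titles and the tag BR, left unexplained, in the count table; whether they are separate animals is not said, and p-values may then cover technical spread alone. Adjusted p-values are Benjamini-Hochberg values over 17362 genes from edgeR's quasi-likelihood test on all 8 libraries, unless another tool is named. The words rose and fell stand for an adjusted p under 0.05. CPM are TMM-normalised read counts relative to library size.

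In livers of DEN-injected mice, Dusp5, Dusp6 and Etv4 rose against untreated liver. These were 3 of the 10 genes, all higher, where 5.18% of all tested genes were called higher and 9.73% in either direction. At an unadjusted p under 0.05 there were 5 of the 10, with Spred1 higher and Phlda1 lower in addition, beside 28.9% of all tested genes. The median log2 fold change of the 10 was 1.23, beside 0.06 for all genes. The libraries of the groups did not overlap for 7 of the 10, near the 71.2% of all tested genes for which they did not, with 2 libraries against 2.

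Dusp5 (ENSMUSG00000034765, mm9 chr19:53603599-53616921), a nuclear phosphatase of ERK, had 2.68 and 0.922 CPM in WT, 4.98, 2.97, 2.60 and 1.64 CPM in PR-SET7_LOBE, and 12.8 and 24.8 CPM in DEN_WT. Both DEN_WT libraries were above all 6 others, and the WT and PR-SET7_LOBE libraries overlapped. In DEN_WT against WT its log2 fold change was 3.38 (SE 0.73, adjusted p = 0.0168). Dusp5 was also the one member called between PR-SET7_LOBE and DEN_WT, at -2.62 (SE 0.55, adjusted p = 0.0111).

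Dusp6 (ENSMUSG00000019960, mm9 chr10:98725865-98730122), the cytoplasmic phosphatase of ERK, had 34.3 and 22.3 CPM in WT, 75.2, 30.5, 80.4 and 37.8 CPM in PR-SET7_LOBE, and 90.0 and 184 CPM in DEN_WT. Again the DEN_WT libraries were above all others, while PR-SET7_LOBE split into replicates 1 and 3 near the lower DEN_WT library and replicates 2 and 4 near WT. The log2 fold change was 2.28 in DEN_WT against WT (SE 0.59, adjusted p = 0.0364) and 0.98 in PR-SET7_LOBE against WT (SE 0.51, adjusted p = 0.337). Between PR-SET7_LOBE and DEN_WT it was -1.29 (SE 0.47, adjusted p = 0.109).

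Dusp4, a nuclear phosphatase of several MAP kinases, passed in none of the 3 comparisons. It had 3.06 and 3.04 CPM in WT, 6.57, 1.24, 6.31 and 2.28 CPM in PR-SET7_LOBE, and 4.16 and 2.47 CPM in DEN_WT. PR-SET7_LOBE replicates 1 and 3 were the high ones, the same libraries as for Dusp6. The log2 fold changes against WT were 0.12 in DEN_WT (SE 0.78, adjusted p = 0.935) and 0.43 in PR-SET7_LOBE (SE 0.69, adjusted p = 0.762).

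**Figure D1:**
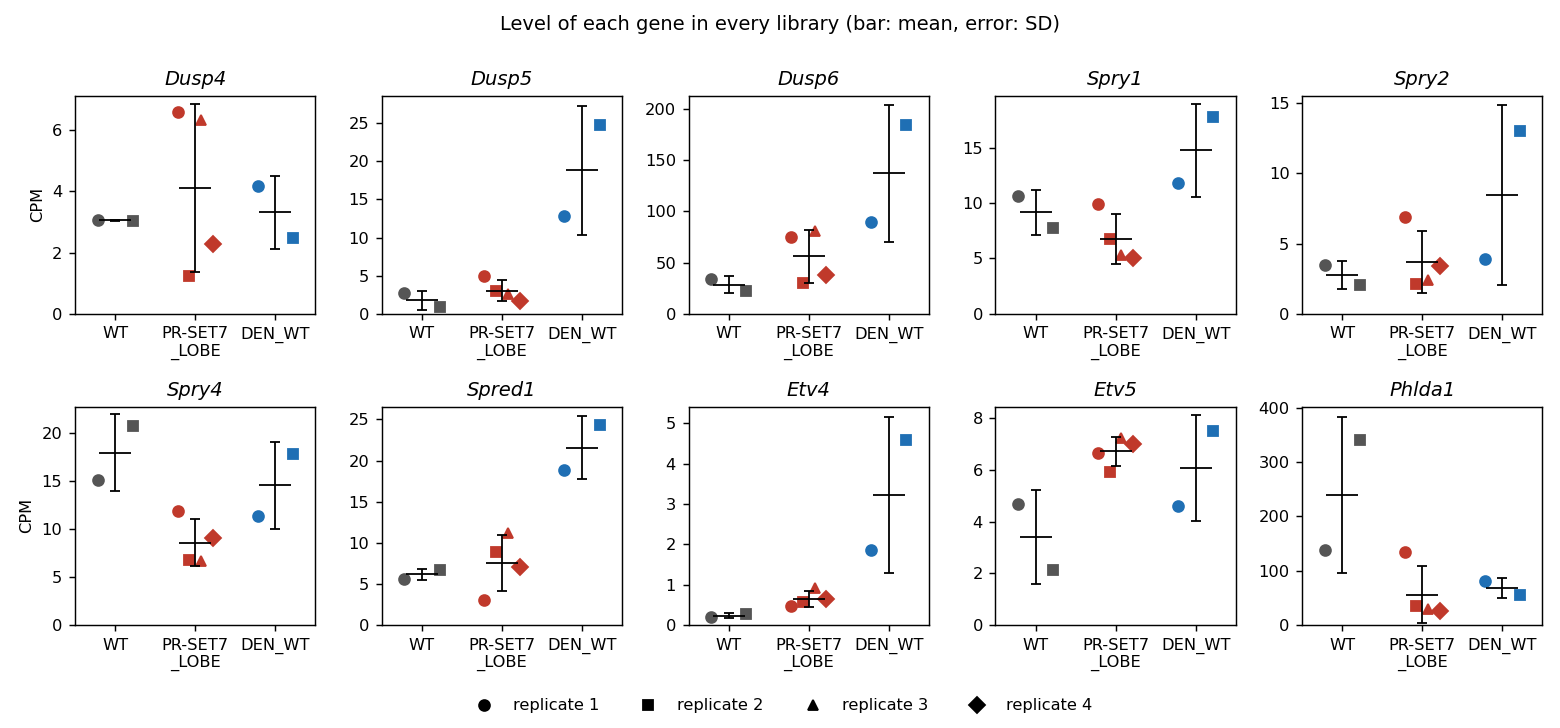
Level of the 10 genes in CPM (vertical axes, each from 0) in the WT, PR-SET7_LOBE and DEN_WT libraries; symbols give the replicate, bars the mean and error bars the SD. Both DEN_WT libraries lie above all others for Dusp5 (12.8 and 24.8 CPM), Dusp6, Spry1, Spred1 and Etv4, and Phlda1 is highest in WT replicate 2 (340 CPM).

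Among the ETS factors, Etv4 rose in DEN_WT and Etv5 did not pass. Etv4 (ENSMUSG00000017724, mm9 chr11:101631056-101646685) was nearly silent in untreated liver, with 2 and 3 counts in the WT libraries, 5, 6, 10 and 7 counts in PR-SET7_LOBE and 21 and 52 counts in DEN_WT. In CPM these were 0.191 and 0.277, then 0.470, 0.574, 0.928 and 0.638, then 1.86 and 4.59, so that no groups overlapped. The log2 fold change of Etv4 in DEN_WT against WT was 3.72 (SE 0.93, adjusted p = 0.0308). From the summed counts the ratio was 13.7, with a 95% counting interval of 5.63 to 43.6 that covers counting error only.

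In PR-SET7_LOBE against WT the log2 fold change of Etv4 was 1.43 (SE 0.84, adjusted p = 0.384), and against DEN_WT it was -2.29 (SE 0.67, adjusted p = 0.0514). Etv5, the related factor, had 4.69 and 2.12 CPM in WT, 6.67, 5.93, 7.24 and 7.01 CPM in PR-SET7_LOBE, and 4.60 and 7.51 CPM in DEN_WT. All 4 PR-SET7_LOBE libraries were close together and above both WT libraries, while DEN_WT replicate 1 lay inside the WT range. The log2 fold change of Etv5 was 0.98 in PR-SET7_LOBE (SE 0.49, adjusted p = 0.325) and 0.83 in DEN_WT (SE 0.55, adjusted p = 0.334).

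By edgeR, none of the 4 Sprouty and Spred inhibitors passed in DEN_WT against WT, and their log2 fold changes ran from -0.30 to 1.81. Spred1 (ENSMUSG00000027351, mm9 chr2:116947110-117008015), which brings the RAS-inactivating protein neurofibromin to the membrane, had 5.65 and 6.64 CPM in WT, 3.10, 8.90, 11.1 and 7.01 CPM in PR-SET7_LOBE, and 18.9 and 24.3 CPM in DEN_WT. Both DEN_WT libraries were above all others, at 1.81 on the log2 scale (SE 0.57, adjusted p = 0.0693). Without PR-SET7_LOBE replicate 1, which takes part in the shared estimate of the spread, the value was 1.81 (adjusted p = 0.00843). DESeq2 (adjusted p = 0.0190) and voom (0.00352) also called Spred1 higher, and it passed under 7 of 17 alternatives. With an offset for GC content it was 0.65 (adjusted p = 0.295); the Spred1 transcript has the lowest GC content of the 10, 41.8%.

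Spry2 had 3.45 and 2.03 CPM in WT, 6.86, 2.10, 2.41 and 3.37 CPM in PR-SET7_LOBE, and 3.90 and 13.0 CPM in DEN_WT. DEN_WT replicate 2 was the highest, followed by PR-SET7_LOBE replicate 1, and the log2 fold change of 1.62 (SE 0.76, adjusted p = 0.187) was 0.53 without DEN_WT replicate 2. Spry1 had 10.6 and 7.74 CPM in WT, 9.96, 6.79, 5.29 and 5.01 CPM in PR-SET7_LOBE, and 11.8 and 17.8 CPM in DEN_WT. Both DEN_WT libraries were above all others. Its log2 fold change in DEN_WT against WT was 0.68 (SE 0.50, adjusted p = 0.381), and that of PR-SET7_LOBE against DEN_WT was -1.13 (SE 0.42, adjusted p = 0.114).

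Spry4 was lowest in PR-SET7_LOBE, with 15.1 and 20.7 CPM in WT, 11.8, 6.79, 6.68 and 9.02 CPM in PR-SET7_LOBE, and 11.3 and 17.8 CPM in DEN_WT. All 4 PR-SET7_LOBE libraries were below both WT libraries, and DEN_WT overlapped WT. The log2 fold change in PR-SET7_LOBE was -1.06 (SE 0.39, adjusted p = 0.226), and without PR-SET7_LOBE replicate 1 it passed, at -1.25 (SE 0.33, adjusted p = 0.0403).

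Phlda1 (ENSMUSG00000020205, mm9 chr10:110943342-110945705), a pleckstrin homology domain protein used in ERK output signatures, had its highest levels in WT. It had 138 and 340 CPM in WT, 134, 34.1, 29.8 and 26.7 CPM in PR-SET7_LOBE, and 81.2 and 55.8 CPM in DEN_WT. Both WT libraries were above all 6 others, and PR-SET7_LOBE replicate 1 lay just under WT replicate 1. The log2 fold change was -2.09 in PR-SET7_LOBE (SE 0.64, adjusted p = 0.172) and -1.80 in DEN_WT (SE 0.80, adjusted p = 0.164), so neither passed. Without PR-SET7_LOBE replicate 1 both passed, at -2.98 (adjusted p = 0.0155) and -1.81 (adjusted p = 0.0184). The comparisons share the WT libraries, and without WT replicate 2 the values were -1.22 and -0.90 (adjusted p = 0.629 and 0.596).

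**Figure D2:**
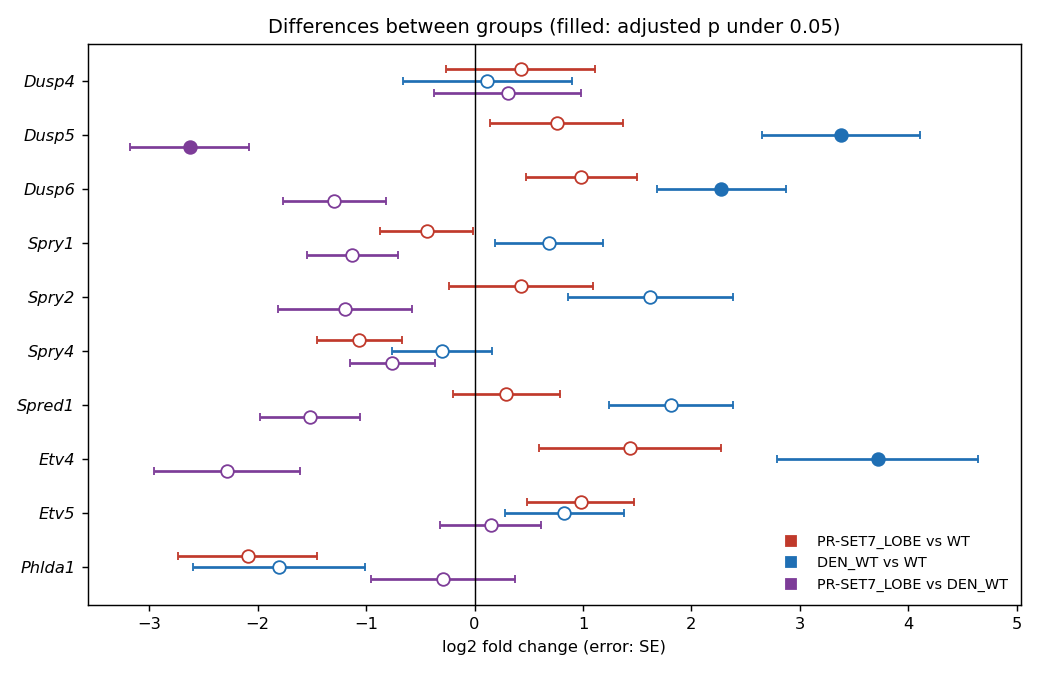
Log2 fold change of the 10 genes (horizontal axis) in the 3 comparisons, with the SE as error bars; filled points have an adjusted p under 0.05. Dusp5, Dusp6 and Etv4 are filled for DEN_WT against WT, at 3.38, 2.28 and 3.72, and Dusp5 (-2.62) for PR-SET7_LOBE against DEN_WT.

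With Pr-Set7 inactivated in hepatocytes, 0 of the 10 genes were called against WT by edgeR, where 0.248% of all tested genes were called. At an unadjusted p under 0.05 there were 2, Phlda1 and Spry4, both lower, beside 17.2% of all tested genes. DESeq2 and voom each called 1, Phlda1, beside 5.13% and 2.22% of all tested genes. The groups did not overlap for 4 of the 10, with Etv4 and Etv5 higher and Spry4 and Phlda1 lower, beside 22.1% of all tested genes. The median log2 fold change of the members was 0.43, and that of all genes was 0.11. Without PR-SET7_LOBE replicate 1, Spry4 and Phlda1 fell, beside 13.9% of all tested genes called in that fit.

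Set directly against DEN_WT, PR-SET7_LOBE had 1 of the 10 genes lower, Dusp5, where 6.26% of all tested genes were called lower and 11.1% in either direction. The log2 fold change was negative for 8 of the 10, with a median of -1.16 beside 0.18 for all genes. For 5 genes, Dusp5, Dusp6, Etv4, Spred1 and Spry1, every PR-SET7_LOBE library was below both DEN_WT libraries, which held for 21.2% of all tested genes. At an unadjusted p under 0.05 there were these same 5, beside 25.8% of all tested genes. Spred1 (log2 fold change -1.52, SE 0.46, adjusted p = 0.0604) and Etv4 missed the threshold. Without PR-SET7_LOBE replicate 1, Spry1 (-1.37, adjusted p = 0.0278) and Spred1 (-1.25, adjusted p = 0.0276) were called as well, beside 15.5% of all tested genes. Without replicate 3, Spred1 (-1.86, adjusted p = 0.0341) and Etv4 (-2.59, adjusted p = 0.0480) were called as well, beside 11.8%. Without DEN_WT replicate 2 none of the 10 was called, and Dusp5 was at -2.10 (adjusted p = 0.216).

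The calls in DEN_WT rested on few libraries. Dusp5 passed in every fit but those without WT replicate 2 (adjusted p = 0.109) or without DEN_WT replicate 2 (adjusted p = 0.146), where its log2 fold change was 2.91 and 2.85. Dusp6 and Etv4 passed with any PR-SET7_LOBE library left out, but not without WT replicate 1 (adjusted p = 0.125 and 0.151), WT replicate 2 (0.205 and 0.110), DEN_WT replicate 1 (0.0591 and 0.0851) or DEN_WT replicate 2 (0.264 and 0.357). In these fits the log2 fold change of Dusp6 stayed between 1.69 and 2.72 and that of Etv4 between 2.95 and 4.25.

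**Figure D3:**
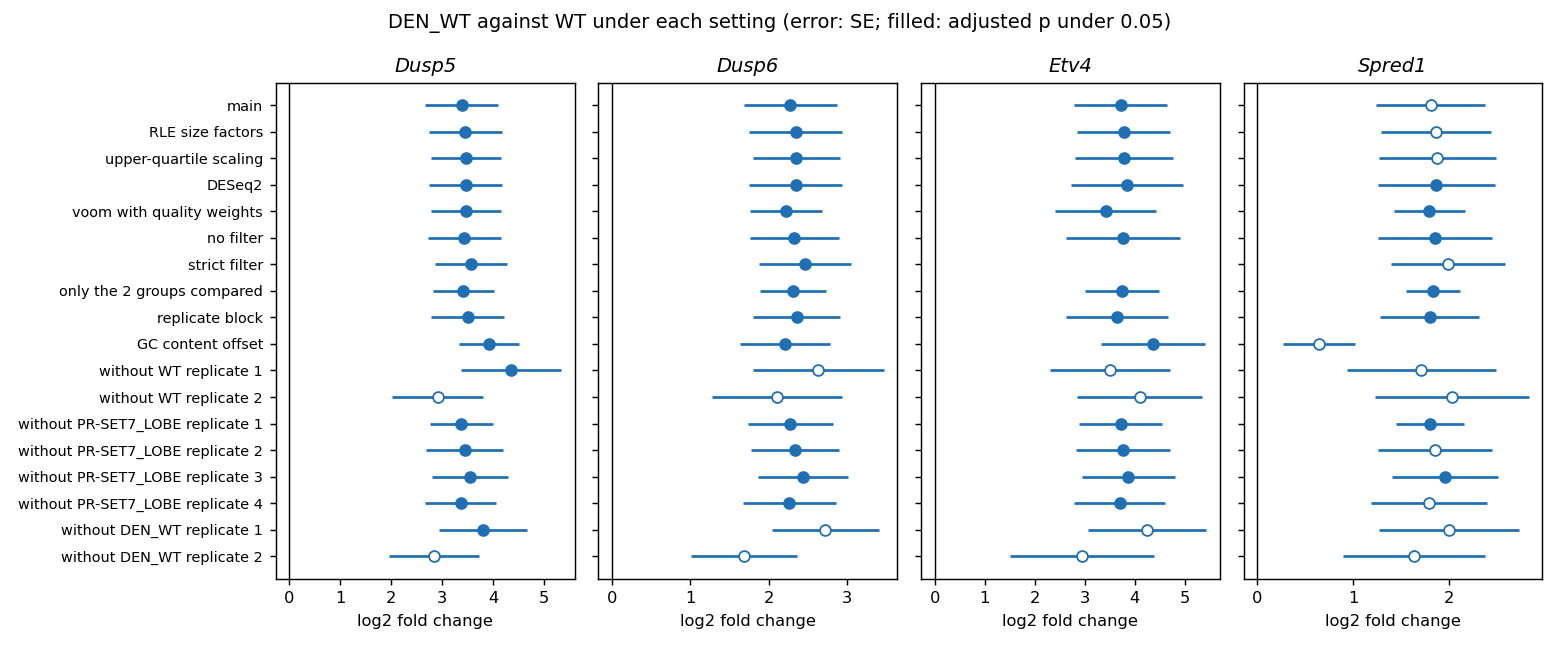
Log2 fold change of Dusp5, Dusp6, Etv4 and Spred1 in DEN_WT against WT (horizontal axes) under each processing setting (vertical axis), with the SE; filled points have an adjusted p under 0.05. Every value is above 0; the open points of Dusp5, Dusp6 and Etv4 are fits with 1 WT or 1 DEN_WT library left out, and Spred1 drops to 0.65 with the GC content offset. Etv4 has no value under the strict filter.

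The DEN_WT libraries themselves differed across the set. DEN_WT replicate 2 was above replicate 1 for 8 of the 10 genes, all but Dusp4 and Phlda1, beside 49.3% of all tested genes. It was more than 1.5-fold higher for 7 of the 10, beside 11.7% of all tested genes. The ratio was largest for Spry2 (3.33), Etv4 (2.47) and Dusp6 (2.05). In WT, replicate 2 over replicate 1 ranged from 0.344 for Dusp5 to 2.47 for Phlda1.

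Within PR-SET7_LOBE the spread was widest for Dusp4, whose highest library was 5.29-fold above its lowest, and Phlda1 (5.01-fold), and narrowest for Etv5 (1.22-fold). Replicate 1 was the highest PR-SET7_LOBE library for Dusp4, Dusp5, Spry1, Spry2, Spry4 and Phlda1 and the lowest for Spred1 and Etv4.

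**Figure D4:**
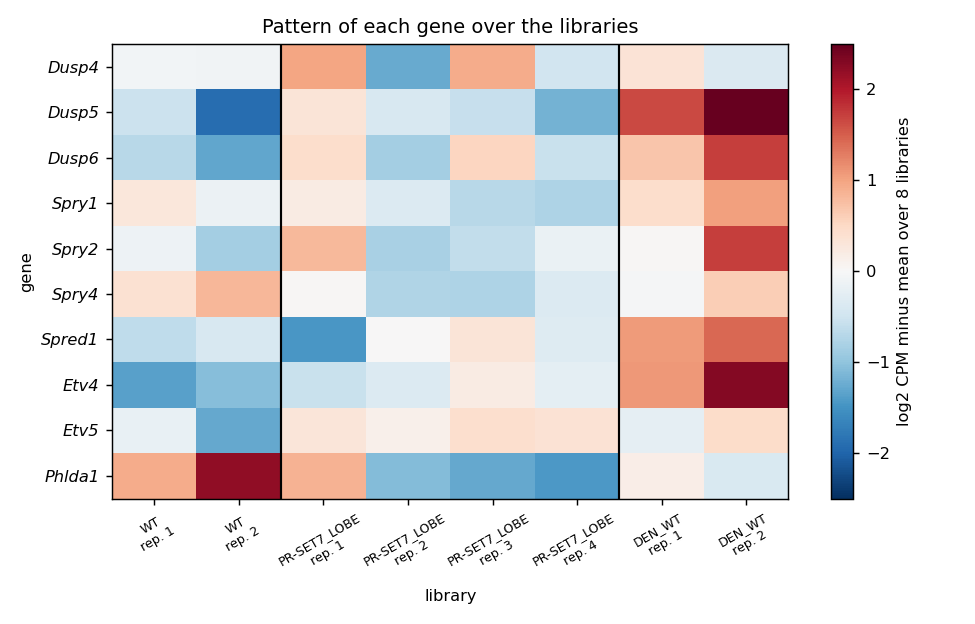
Log2 CPM of each gene (rows) in each library (columns) minus its mean over the 8 libraries; red is above and blue below that mean, and vertical lines part the groups. DEN_WT replicate 2 is the reddest column for Dusp5, Dusp6, Spry2 and Etv4, and the row of Phlda1 runs the other way, with WT highest.

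Per kilobase of transcript, Phlda1 and Dusp6 were the most abundant members in every group and the others lay well below. In WT, Phlda1 was at 123 ± 73.6 CPM per kb (SD, n = 2), Dusp6 at 10.1 ± 3.02 and Spry4 at 3.77 ± 0.836. The ranges of Spry4 (3.18 to 4.36) and Spry1 (2.79 to 3.83) overlapped, and Etv4 was lowest at 0.0977 ± 0.0252 CPM per kb. In PR-SET7_LOBE, Phlda1 (28.8 ± 26.6 CPM per kb, n = 4) and Dusp6 (20.0 ± 9.11) overlapped. In DEN_WT, Dusp6 was at 49.1 ± 23.9 CPM per kb (SD, n = 2) and Phlda1 at 35.2 ± 9.21, with overlapping ranges, and Dusp5 moved from the ninth place in WT to the third at 7.61 ± 3.43.

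Genes with the closest pattern over the 8 libraries were taken by the root mean squared difference of log2 CPM centred on each gene's mean. For Dusp6 these were Agfg1, Slc16a1, Cldn7, Slc16a6 and Tgif1, with differences of 0.28 to 0.42, where Dusp6 itself varied by 0.95 about its mean. For Spry4 they were Hyi, Bscl2, Aadat, Cd300lg and Ilvbl (0.11 to 0.18, with Spry4 varying by 0.56). For Etv5 they were Atg4c, Mapkapk3, Eftud1, Frmd6 and Dusp10 (0.20 to 0.24, with Etv5 varying by 0.54). Among the members, Spry1 and Spry4 were the closest pair (0.47), followed by Spry1 and Spry2 (0.53) and by Dusp6 and Etv4 (0.55). Dusp5 and Phlda1 were the farthest apart (1.99). The difference is not scaled by how far a gene varies, so genes that vary little can rank as close. Spry4 varied by 0.56 about its mean and Dusp6 by 0.95.

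The kinases and adaptors upstream, from receptor adaptors through RAS, RAF, MEK and ERK, gave calls that depended on the tool. Of 22 tested genes, edgeR called 0 in each comparison. In DEN_WT against WT 4 of the 22 were at an unadjusted p under 0.05, beside 28.9% of all tested genes; in PR-SET7_LOBE the number was 0 against WT (17.2% of all) and 2 against DEN_WT (25.8%). In DEN_WT against WT, DESeq2 called 1 of the 22 higher, beside 18.1% of all tested genes called, and voom called 6 higher and 3 lower, beside 36.5%. In PR-SET7_LOBE against WT, DESeq2 called 0 and voom 1, beside 5.13% and 2.22% of all tested genes. Against DEN_WT they called 1 and 2, beside 16.4% and 29.9%. Without PR-SET7_LOBE replicate 1, edgeR called 3 higher and 3 lower in DEN_WT against WT, beside 26.5% of all tested genes. In that fit it called 1 higher and 2 lower in PR-SET7_LOBE against WT, beside 13.9%, and 0 against DEN_WT, beside 15.5%.

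The median log2 fold change of these 22 was -0.07 in DEN_WT and 0.03 in PR-SET7_LOBE against WT. Map2k2, the gene of MEK2, had 281 and 246 CPM in WT and 84.0 and 92.3 CPM in DEN_WT (log2 fold change -1.58, adjusted p = 0.148). It was called lower by voom and by edgeR without PR-SET7_LOBE replicate 1, both in DEN_WT and in PR-SET7_LOBE against WT. By edgeR on all 8 libraries, the exchange factor Sos1 (-0.79, adjusted p = 0.181, PR-SET7_LOBE against DEN_WT) and the adaptor Gab1 (-0.68, adjusted p = 0.324, PR-SET7_LOBE against WT) did not pass. Voom called Sos1 lower in PR-SET7_LOBE than in DEN_WT. Sos1 was also among the 6 that voom called higher in DEN_WT than in WT. Gab1 was called lower in DEN_WT than in WT by voom and by edgeR without PR-SET7_LOBE replicate 1. In DEN_WT against WT 11 of the 22 had positive log2 fold changes.

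Among 14 RAS GTPase activating proteins and other inhibitors, Rasa1, which switches RAS off, rose in DEN_WT and the other 13 did not pass by edgeR. Rasa1 had 2.68 and 2.49 CPM in WT, 2.54, 5.45, 7.80 and 7.83 CPM in PR-SET7_LOBE, and 17.5 and 16.2 CPM in DEN_WT (log2 fold change 2.70, SE 0.60, adjusted p = 0.0196). Both DEN_WT libraries were above all others. For the same comparison, DESeq2 called 1 of the 14 higher and 1 lower, beside 18.1% of all tested genes called. There voom called 3 higher and 1 lower, beside 36.5%. By edgeR, 0 of the 14 passed in PR-SET7_LOBE against WT and 0 against DEN_WT, with 3 at an unadjusted p under 0.05 in each, beside 17.2% and 25.8% of all tested genes. DESeq2 called 2 lower in each, and voom 1 lower against WT and 1 higher and 2 lower against DEN_WT. Among all tested genes DESeq2 called 5.13% against WT and 16.4% against DEN_WT, and voom 2.22% and 29.9%. Leaving out PR-SET7_LOBE replicate 1, edgeR called 1 of the 14 higher and 1 lower in each comparison with WT. Among all tested genes that fit called 13.9% in PR-SET7_LOBE and 26.5% in DEN_WT against WT. Between PR-SET7_LOBE and DEN_WT it called 2 lower, beside 15.5%. Rasa1 was the gene called higher against WT in both groups, and it was called lower in PR-SET7_LOBE than in DEN_WT.

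Errfi1, a feedback inhibitor of the EGF receptor, had 861 and 1139 CPM in WT, 597, 281, 255 and 244 CPM in PR-SET7_LOBE, and 937 and 1051 CPM in DEN_WT. All PR-SET7_LOBE libraries were below the others, with log2 fold changes of -1.54 against WT (SE 0.46, adjusted p = 0.163) and -1.53 against DEN_WT (SE 0.46, adjusted p = 0.0555). Without PR-SET7_LOBE replicate 1, Errfi1 was called lower in both. Pebp1, an inhibitor of RAF, had 1149 and 1110 CPM in WT, 350, 598, 209 and 186 CPM in PR-SET7_LOBE, and 156 and 312 CPM in DEN_WT (log2 fold change -1.75 in PR-SET7_LOBE, SE 0.52, adjusted p = 0.161). Both WT libraries of Pebp1 were the highest. In DEN_WT against WT its log2 fold change was -2.27 (SE 0.65, adjusted p = 0.0507), and DESeq2, voom and edgeR without PR-SET7_LOBE replicate 1 called it lower there.

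Of the 10 other tested DUSP and Spred genes, edgeR called 0 in each comparison, with 3, 0 and 3 at an unadjusted p under 0.05 in PR-SET7_LOBE against WT, DEN_WT against WT and PR-SET7_LOBE against DEN_WT. Of all tested genes, 17.2%, 28.9% and 25.8% were at that p in the same order. Of the 10, DESeq2 called 0, 0 and 1, voom 0, 2 and 3, and edgeR without PR-SET7_LOBE replicate 1 called 0, 0 and 2 (Dusp16 and Spred2, lower). Among all tested genes DESeq2 called 5.13%, 18.1% and 16.4%, voom 2.22%, 36.5% and 29.9%, and that edgeR fit 13.9%, 26.5% and 15.5%. Dusp1, an immediate early phosphatase, had 23.6 and 23.1 CPM in WT, 9.84 to 14.8 CPM in PR-SET7_LOBE and 14.1 and 11.6 CPM in DEN_WT. Both WT libraries were the highest, with log2 fold changes of -0.85 in PR-SET7_LOBE (adjusted p = 0.245) and -0.87 in DEN_WT (adjusted p = 0.173).

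Dusp16, a phosphatase of JNK and p38, had 43.0 and 40.3 CPM in WT, 22.1 to 41.8 CPM in PR-SET7_LOBE and 60.6 and 98.7 CPM in DEN_WT. Both DEN_WT libraries were the highest (log2 fold change 0.94 against WT, adjusted p = 0.181; PR-SET7_LOBE against DEN_WT -1.22, adjusted p = 0.0525). DESeq2, voom and edgeR without PR-SET7_LOBE replicate 1 called Dusp16 lower in PR-SET7_LOBE than in DEN_WT. Dusp8 had 1.15 and 1.84 CPM in WT and 2.23 to 6.57 CPM in PR-SET7_LOBE (log2 fold change 1.71, adjusted p = 0.218). Dusp9 had 0.383 and 1.57 CPM in WT, 2.25, 6.12, 2.14 and 1.82 CPM in PR-SET7_LOBE, and 0.885 and 0.442 CPM in DEN_WT. Its log2 fold change in PR-SET7_LOBE against DEN_WT was 2.20 (SE 0.85, adjusted p = 0.128, edgeR), which did not pass, and voom called it higher there.

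Of 15 tested genes in a further list of 18 ERK-induced genes, 2 rose in DEN_WT against WT, where 5.18% of all tested genes were called higher. DESeq2 called 5 of them higher, voom 6, and edgeR without PR-SET7_LOBE replicate 1 called 4, with Ccnd1 and Lif in addition. These fits called 18.1%, 36.5% and 26.5% of all tested genes in either direction. Egr1, an immediate early transcription factor, had 18.8 and 13.5 CPM in WT, 34.7, 23.7, 22.4 and 9.47 CPM in PR-SET7_LOBE, and 158 and 205 CPM in DEN_WT. Its log2 fold change was 3.49 against WT (SE 0.59, adjusted p = 0.00559), and PR-SET7_LOBE was lower than DEN_WT (-3.00, SE 0.45, adjusted p = 0.00208), the 1 call of the list in that comparison by edgeR, with or without PR-SET7_LOBE replicate 1. Emp1, an epithelial membrane protein, had 1.15 and 0.922 CPM in WT, 2.91, 7.08, 6.03 and 4.46 CPM in PR-SET7_LOBE, and 12.2 and 8.30 CPM in DEN_WT. No groups overlapped, and the log2 fold change in DEN_WT was 3.30 (SE 0.63, adjusted p = 0.00972).

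In PR-SET7_LOBE against WT edgeR called 0 of these 15, and their median log2 fold change was 0.95. At an unadjusted p under 0.05 there were 5, beside 17.2% of all tested genes. DESeq2 called 4 higher, voom 2, and edgeR without PR-SET7_LOBE replicate 1 called 3 (Ccnd1, Emp1 and Lif). These fits called 5.13%, 2.22% and 13.9% of all tested genes in either direction. Ccnd1, the gene of cyclin D1, had 23.3 and 15.9 CPM in WT, 149, 166, 62.8 and 75.1 CPM in PR-SET7_LOBE, and 72.4 and 55.7 CPM in DEN_WT. All 6 libraries of the other groups were above WT, and the log2 fold change in PR-SET7_LOBE was 2.53 (SE 0.52, adjusted p = 0.0834). Lif, a cytokine of the interleukin-6 family, had 1.15 and 1.75 CPM in WT and 6.56 to 14.9 CPM in PR-SET7_LOBE (log2 fold change 2.80, adjusted p = 0.0743).

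**Figure D5:**
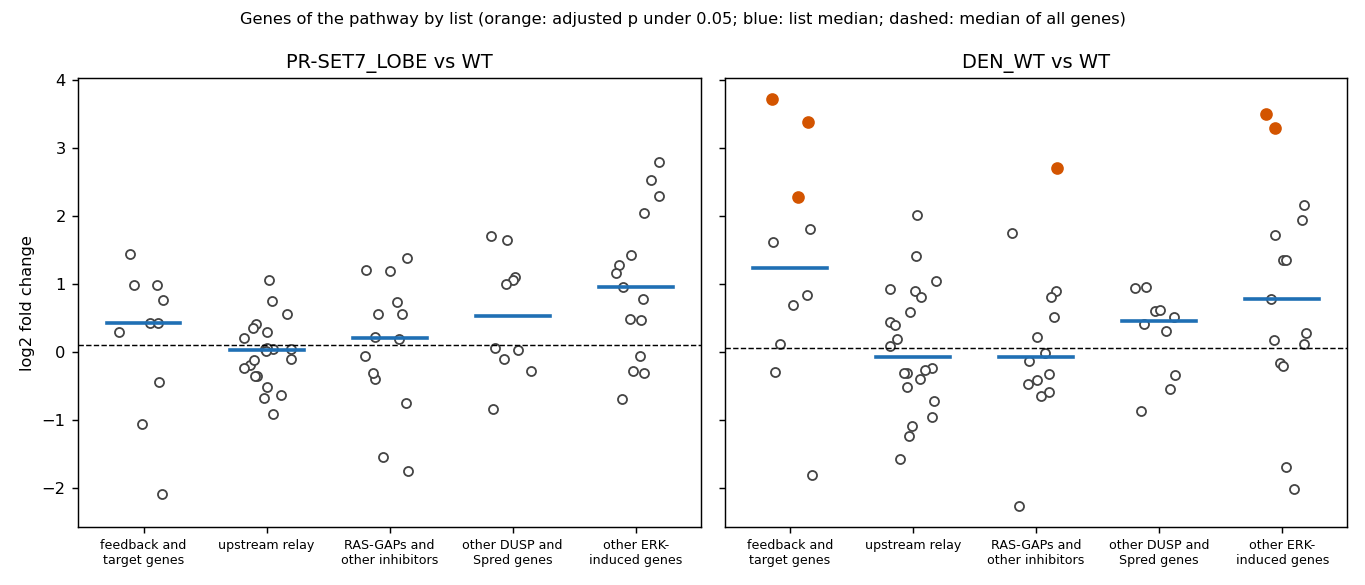
Log2 fold change (vertical axis) of each tested gene in 5 lists of the pathway (horizontal axis), for PR-SET7_LOBE and DEN_WT against WT; orange points have an adjusted p under 0.05, blue bars are list medians and the dashed line is the median of all genes. In DEN_WT the orange points are Dusp5, Dusp6, Etv4, Rasa1, Egr1 and Emp1.

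In whole tissue, a change in the share of a cell type and a change in RNA per cell cannot be told apart. Shares of all tested genes are given first, to be read beside the marker counts. In DEN_WT against WT edgeR called 9.73%, DESeq2 18.1% and voom 36.5%, and 28.9% had an unadjusted p under 0.05. In PR-SET7_LOBE against WT these shares were 0.248%, 5.13%, 2.22% and 17.2%, and against DEN_WT 11.1%, 16.4%, 29.9% and 25.8%. Without PR-SET7_LOBE replicate 1, edgeR called 26.5% in DEN_WT against WT. Of 9 hepatocyte markers, 1 fell in DEN_WT against WT (Ass1), where DESeq2 and voom each called 1 higher and 2 lower. In that comparison 2 of the 9 had positive log2 fold changes, with a median of -0.51. Alb alone, at 85340 and 105982 CPM, held most of their summed level in DEN_WT. The 9 summed to 111983 to 146829 CPM in WT, 49931 to 168528 in PR-SET7_LOBE and 129471 to 163132 in DEN_WT. Endothelial markers summed to 585 to 759, 343 to 882 and 448 to 461 CPM in the same order. Of these 13, edgeR called 0 in each comparison, with 2 at an unadjusted p under 0.05 in DEN_WT against WT, where DESeq2 called 2 and voom 4. Summed stellate and fibroblast markers were at 118 to 166, 207 to 287 and 241 to 414 CPM, with 1 of 11 higher in DEN_WT against WT and 5 at an unadjusted p under 0.05. In that comparison 10 of the 11 had positive log2 fold changes, with a median of 1.21. DESeq2 and voom each called 4 higher there, and edgeR without PR-SET7_LOBE replicate 1 called 5. In PR-SET7_LOBE against WT 11 of the 11 were positive, with a median of 0.77 and 3 at an unadjusted p under 0.05. For these edgeR called 0, DESeq2 1 higher and voom 0. Macrophage markers summed to 400 to 1283, 433 to 1469 and 370 to 513 CPM. Of these 11, edgeR called 0 in each comparison, with 3 at an unadjusted p under 0.05 in DEN_WT against WT, where DESeq2 called 1 and voom 3. In PR-SET7_LOBE against DEN_WT 10 of the 11 had positive log2 fold changes, with a median of 1.00. There 3 were at an unadjusted p under 0.05, and DESeq2 called 3 higher and voom 2. In PR-SET7_LOBE against WT DESeq2 called 1 higher and voom 0.

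Cholangiocyte markers summed to 38.7 to 67.9, 121 to 296 and 436 to 738 CPM, with 1 of 8, Spp1, higher in each comparison with WT. Spp1 made up most of that sum outside WT, while Krt19 and Krt7, which define cholangiocytes, had at most 5.17 and 3.94 CPM in any library. In PR-SET7_LOBE against WT 5 of the 8 had positive log2 fold changes, Krt19 (-0.05) and Krt7 (-0.43) not among them. The median there was 1.88, with 4 at an unadjusted p under 0.05. DESeq2 called 3 higher (Cd24a, Sox9 and Spp1) and voom 2. In DEN_WT against WT 6 of the 8 were positive, with a median of 0.78, and DESeq2 called 2 higher and voom 3. Lymphocyte markers summed to 20.5 to 21.6, 22.7 to 29.2 and 6.36 to 8.94 CPM, with 1 of 10 lower in DEN_WT against WT and 2 higher in PR-SET7_LOBE against DEN_WT; Cd3g was at 0 in both WT libraries. Cd3d alone had 14.0 and 13.6 CPM in WT, 4.08 to 13.8 in PR-SET7_LOBE and 0.354 and 0.265 in DEN_WT, so that it held most of the sum in WT. In PR-SET7_LOBE against WT 9 of the 10 lymphocyte markers had positive log2 fold changes, with a median of 1.63 and 5 at an unadjusted p under 0.05; edgeR called 0, DESeq2 1 and voom 0. Proliferation genes summed to 8.94 to 9.09, 28.6 to 56.3 and 27.7 to 32.3 CPM. Of these 8, 3 rose in DEN_WT against WT; in PR-SET7_LOBE against WT edgeR called 0, with 6 at an unadjusted p under 0.05, DESeq2 5 and voom 1.

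The edgeR calls among these markers without PR-SET7_LOBE replicate 1 were, in PR-SET7_LOBE against WT, 4 of 8 proliferation genes, 3 of 8 cholangiocyte, 2 of 11 stellate and 1 of 11 macrophage markers higher, 1 of 13 endothelial markers lower, 2 of 10 lymphocyte markers higher and 1 lower, and 1 hepatocyte marker higher and 2 lower. For DEN_WT against WT they were 5 proliferation genes and 2 cholangiocyte markers higher, 2 endothelial markers higher and 1 lower, 1 macrophage and 1 lymphocyte marker lower, and 1 hepatocyte marker higher and 2 lower. Between PR-SET7_LOBE and DEN_WT they were 1 stellate marker lower and 2 lymphocyte markers higher. In the same order of comparisons that fit called 13.9%, 26.5% and 15.5% of all tested genes. The part of these cell types and of proliferation in the levels of the 10 genes was not tested.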

How the data were processed

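Mouse liver RNA was measured by sequencing in 8 libraries of 3 groups (WT 2, PR-SET7_LOBE 4, DEN_WT 2). Per the labels' protocols, mRNA was isolated with oligo(dT) beads, fragmented with RNase III, ligated to adaptors and read on an Ion Proton. The deposited values are raw counts per Ensembl gene, and the 8 files of single samples hold the same counts as the series table. The build is mm9 and the tools named are TopHat2 2.0.9, Cufflinks and DESeq, per the submitters' processing notes. Which tool counted the reads, with which annotation and strand setting, is not given in the sources used here. None of the 10 genes overlaps another gene in the table.

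edgeR 4.0.16 was run on the deposited counts of all 8 libraries (filterByExpr by group, TMM, group as the only term, robust quasi-likelihood). The common biological coefficient of variation was 0.479. CPM use the TMM-scaled library sizes, log2 CPM a prior count of 2, and the detection floor of 3 counts was 0.265 to 0.287 CPM per library. Intervals cover counting error only, since amplified reads carry no molecular identifiers. Replicates differed beyond sampling noise (chi-square per degree of freedom of at least 30.3). Levels per kilobase use the longest protein-coding transcript of GENCODE M21, matched by Ensembl identifier; its coordinates were not used. Promoter sequences are from RefSeq, GRCm38.p6.

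The members and lists were chosen with earlier results of these data known. All 10 members are named; of each other pathway list, up to 4 genes that passed, or the 2 with the smallest p where none passed (some of these are not reported here); and the 5 genes closest in pattern to Dusp6, Spry4 and Etv5 with a mean log2 CPM of 1 or more. Symbols under several identifiers (Dusp8) were read from the one with most counts. Alternatives were RLE and upper-quartile scaling, DESeq2 1.42.0, voom with quality weights (limma 3.58.1), no filter, a strict filter (5 CPM in 2 libraries), a fit of only the 2 groups, the replicate number as a blocking term, an offset for transcript GC content (known for 96.6% of tested genes), and leaving out each library; a lone library of a group was then assumed to vary like the others. Tested on simulated counts of 16058 genes, DEN_WT against WT recovered 8 of 100 genes changed 4-fold and 88 of 100 changed 16-fold; PR-SET7_LOBE against WT (16128 genes) recovered 28 and 96.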

Additional observations from a re-analysis of the deposited data

Results flagged for a closer look

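Phlda1 in PR-SET7_LOBE replicate 1 lay far from the other libraries of its group: on the log2 CPM scale the gap to the next library was 0.849 of the whole range of the 4, above the critical value of 0.829. The levels were 134 CPM in replicate 1 and 26.7 to 34.1 CPM in replicates 2 to 4. Of the 10 genes tested this way in this group, Phlda1 was the only one past the critical value, and chance flags about 1 in 20. Without replicate 1, Phlda1 fell against WT (log2 fold change -2.98, adjusted p = 0.0155, edgeR).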

How the results depend on the processing

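Of 506 values of the 10 genes in the 3 comparisons under alternatives, 449 kept their direction and side of the threshold, 11 lost the call, 33 gained it and 13 changed sign. The count of the 10 genes called was 0 in PR-SET7_LOBE against WT and 1 with DESeq2 or voom; it was 0 to 2 with each library left out in turn. In DEN_WT against WT it was 3, 4 with DESeq2, and 5 with voom or with only the 2 groups compared, and 0 to 5 with each library left out (0 without WT replicate 2 or DEN_WT replicate 2, and 1 without WT replicate 1 or DEN_WT replicate 1). In PR-SET7_LOBE against DEN_WT it was 1; it was 2 with RLE size factors, 3 with DESeq2, 6 with voom, 3 with no filter, 2 with only the 2 groups, 4 with the GC content offset, and 0 to 3 with each library left out. With the replicate block it was 2 there, 0 in PR-SET7_LOBE against WT and 4 in DEN_WT against WT, where Spred1 joined. The numbers are not said to mark a shared animal or day, and same-numbered deviations correlated at -0.00874 to 0.165 across genes.

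The values that changed sign had adjusted p of 0.478 or more, and the cause was not tested. With the replicate block they were Spred1 in PR-SET7_LOBE against WT (-0.16) and Phlda1 in PR-SET7_LOBE against DEN_WT (0.20). With the GC offset they were Spred1 in PR-SET7_LOBE against WT (-0.40), and Dusp4 (-0.071) and Etv5 (-0.10) in PR-SET7_LOBE against DEN_WT. With each library left out in turn, values ran from -0.051 to 0.85 for Spry2 in PR-SET7_LOBE against WT, from -0.28 to 0.46 for Dusp4 and -0.64 to 0.048 for Spry4 in DEN_WT against WT, and from -0.075 to 0.69 for Dusp4 and -0.19 to 0.51 for Etv5 in PR-SET7_LOBE against DEN_WT.

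Upper-quartile scaling moved the median of all genes in PR-SET7_LOBE against WT from 0.11 to 0.29 and its calls from 26 higher and 17 lower to 47 and 19 (60.5% to 71.2% higher). All genes called there numbered 43, and 890 with DESeq2, 386 with voom, 419 with no filter, 19 with only the 2 groups, 243 with the replicate block, 121 with the GC offset and 1 to 2392 with each library left out. In DEN_WT against WT they numbered 1689, and 3144 with DESeq2, 6335 with voom, 5643 with only the 2 groups, 3137 with the block and 329 to 4549 with each library left out. Between PR-SET7_LOBE and DEN_WT they numbered 1924, and 5188 with voom and 454 to 2662 with each library left out. Etv4 has 2 and 3 counts in WT, so depth limits its fold change. Etv4 was not tested under the strict filter, nor in the fit of PR-SET7_LOBE and WT alone.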
